A study of Sus scrofa with 12 samples.

Results

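The miR-29 family was described by small RNA sequencing of boar testes from 2 breeds, Hezuo (HZ) and Landrace (LC). Members were the entries of the deposited miRNA table named miR-29, with or without the porcine prefix, a letter or an arm suffix, and 7 of 1452 listed miRNAs had such a name. The groups were Ha (HZ boars of 30 days), Hb (HZ boars of 120 days), La (LC boars of 30 days) and Lb (LC boars of 120 days), with 3 libraries each. No treatment or genetic change is given for any group. The methods describe the HZ boars as sexually immature at the younger age and mature at the older age, take the LC boars at the same ages, and describe RNA drawn from pooled samples. They also give 3 boars for each breed and age. It is therefore not known whether a library holds 1 boar, and the p-values measure the spread between these libraries.

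A miRNA hairpin gives a 5p and a 3p arm, and the arm loaded into an Argonaute protein pairs with messenger RNAs mainly through its seed, the bases that follow the first base. The family is known for the 3p arms of miR-29a, miR-29b and miR-29c, which share a seed. Their best known targets encode collagens and other proteins of the extracellular matrix, and the enzymes that place or remove DNA methylation.

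The listed sequences are shown because they decide which entries share a seed and which could share reads. They are written 5′ to 3′ with T as in the deposited table, and capitals mark bases 2 to 8.
ssc-miR-29a-3p: cTAGCACCatctgaaatcggtta
ssc-miR-29c: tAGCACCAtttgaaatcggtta
ssc-miR-29b: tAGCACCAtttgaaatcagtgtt
miR-29-y: tAGCACCAtttgaaatcggaa
miR-29-z: cACCATTTgaaatcggttact
miR-29-x: tGACCGATttctcctggtgttct
ssc-miR-29a-5p: aCTGATTTcttttggtgttcag
The 7 capital letters were the same in ssc-miR-29b, ssc-miR-29c and miR-29-y. In ssc-miR-29a-3p the same 7 letters stood at bases 3 to 9, since its listed sequence has 1 more base at the 5′ end. The 7 letters were in none of miR-29-z, miR-29-x and ssc-miR-29a-5p. miR-29-y shared its first 19 bases with ssc-miR-29c, and miR-29-z held a run of 19 bases of ssc-miR-29c that began at base 4. ssc-miR-29b and ssc-miR-29c shared their first 17 bases, and ssc-miR-29a-3p and ssc-miR-29c lay 2 edits apart (bases changed, added or removed). The methods gave each tag 1 annotation and placed porcine entries before those of other species, but the mismatches allowed in this step are not given in the sources used here. The split of reads between ssc-miR-29a-3p, ssc-miR-29c, miR-29-y and miR-29-z, and the ratios between them, are uncertain to that extent. miR-29-x carries the sequence known as the 5p arm of miR-29c. The only listed entry of another name within 3 edits of a member was miR-285-z, which also held the shared seed and had 8 counts over all 12 libraries.

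In the Sscrofa11.1 RefSeq annotation, the build of the deposited files, the hairpin genes formed 2 pairs. MIR29B-1 was at chr18:18039629-18039709 and MIR29A at chr18:18040032-18040117, with 322 bases between them. MIR29B-2 was at chr9:135019079-135019162 and MIR29C at chr9:135019638-135019725, with 475 bases between them. No other annotated gene overlapped the 4 genes. The nearest coding genes were KLF14, 107007 bases from MIR29A, and CD46, 5714 bases from MIR29C. Mature ssc-miR-29b can come from either pair, so its counts cannot be assigned to a chromosome.

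The libraries held 6520197 to 16874633 counts of listed miRNAs, so that 1 count was worth 0.0527 to 0.135 TPM, the unit in which the authors scaled counts to the clean tags of a library. Summed TPM of marker lists gave the tissue background, and no listed marker was at 0 in all libraries. The 5 entries of miR-202, a miRNA of gonadal somatic cells, summed to 18670 to 21870 TPM in Ha and 9608 to 17270 TPM in Hb. They summed to 15270 to 17280 TPM in La and 17970 to 24400 TPM in Lb. This list was thus lower at 120 days in HZ boars and higher in LC boars, without overlap, and every Hb library was below every Lb library. The 4 germ cell entries (miR-34c and miR-449) summed to 23.5 to 76.9 TPM in Ha, 2580 to 13180 TPM in Hb, 16.6 to 24.6 TPM in La and 11280 to 13890 TPM in Lb. The germ cell list was thus higher at 120 days, as the miR-29 family was. The striated muscle list of 4 entries was also higher, at 128 to 277 TPM in Ha and 432 to 719.6 TPM in Hb, and at 106 to 197.5 TPM in La and 674 to 814.5 TPM in Lb. The blood list of 7 entries was lower at 120 days in LC boars (3361 to 3765 TPM in La, 1882 to 2333 TPM in Lb). The part of these lists in the results was not tested. The endothelium list was lower at 120 days in both breeds without overlap. It was at 12480 to 15560 TPM in Ha and 11040 to 11910 TPM in Hb, and at 11480 to 13100 TPM in La and 8529 to 11000 TPM in Lb. Its part in the results was not tested either. The lists for mesenchyme and epithelium summed to 94230 to 118200 and 28.2 to 150.3 TPM over all libraries, and their ages overlapped in both breeds. In bulk tissue, fewer cells of a type and less RNA per cell cannot be told apart.

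The family as a whole was higher at 120 days in both breeds. The 7 entries together summed to 971, 862 and 945 TPM in Ha and to 2666, 4115 and 4758 TPM in Hb. In LC boars they summed to 807, 1043 and 943 TPM in La and to 1739, 1498 and 1730 TPM in Lb. The means were 926 ± 57.0 TPM in Ha, 3846 ± 1072 TPM in Hb, 931 ± 119 TPM in La and 1656 ± 137 TPM in Lb (SD, n = 3). The older libraries all lay above the younger ones, and the Hb libraries all lay above the Lb libraries, while Ha and La overlapped. ssc-miR-29a-3p made up 90.7% of the summed level in Ha and 88.7% in Hb, and 90.8% in La and 85.5% in Lb.

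**Figure D1:**
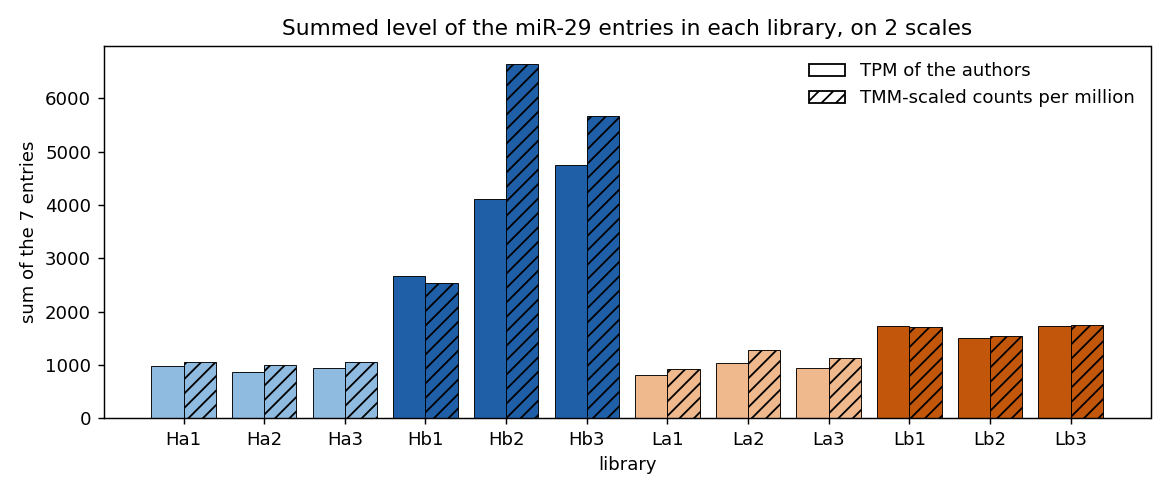
Sum of the 7 miR-29 entries in each of the 12 libraries (vertical axis from 0, plain bars in TPM, hatched bars in CPM scaled by trimmed means, one colour per group). On the TPM scale the Hb libraries lie between 2666 and 4758 and stand above all others, and the group mean of the hatched bars is 4953 in Hb.

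Among the 3p arms with the shared seed, ssc-miR-29a-3p was the most abundant, at rank 58 of 1452 by mean TPM. It stood at 879, 779.7 and 861 TPM in Ha and at 2368, 3614 and 4261 TPM in Hb. It stood at 726, 954 and 859 TPM in La and at 1476, 1293 and 1478 TPM in Lb. Every library of 120 days was above every library of 30 days, and every Hb library was above every Lb library.

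ssc-miR-29c, of the pair on chromosome 9, ranked 204. Its levels were 43.6, 38.1 and 35.8 TPM in Ha and 154, 285 and 268 TPM in Hb. They were 40.1, 47.0 and 44.0 TPM in La and 147, 106 and 146 TPM in Lb. Again the ages did not overlap in either breed. The lowest Hb library, replicate 1, was only just above the highest Lb library.

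ssc-miR-29b, which both pairs encode, ranked 258. It was at 22.5, 19.9 and 22.1 TPM in Ha and at 88.1, 121 and 133 TPM in Hb. It was at 15.2, 17.3 and 16.6 TPM in La and at 59.9, 47.1 and 53.2 TPM in Lb. The 4 groups did not overlap, and the order from the highest was Hb, Lb, Ha and La.

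**Figure D2:**
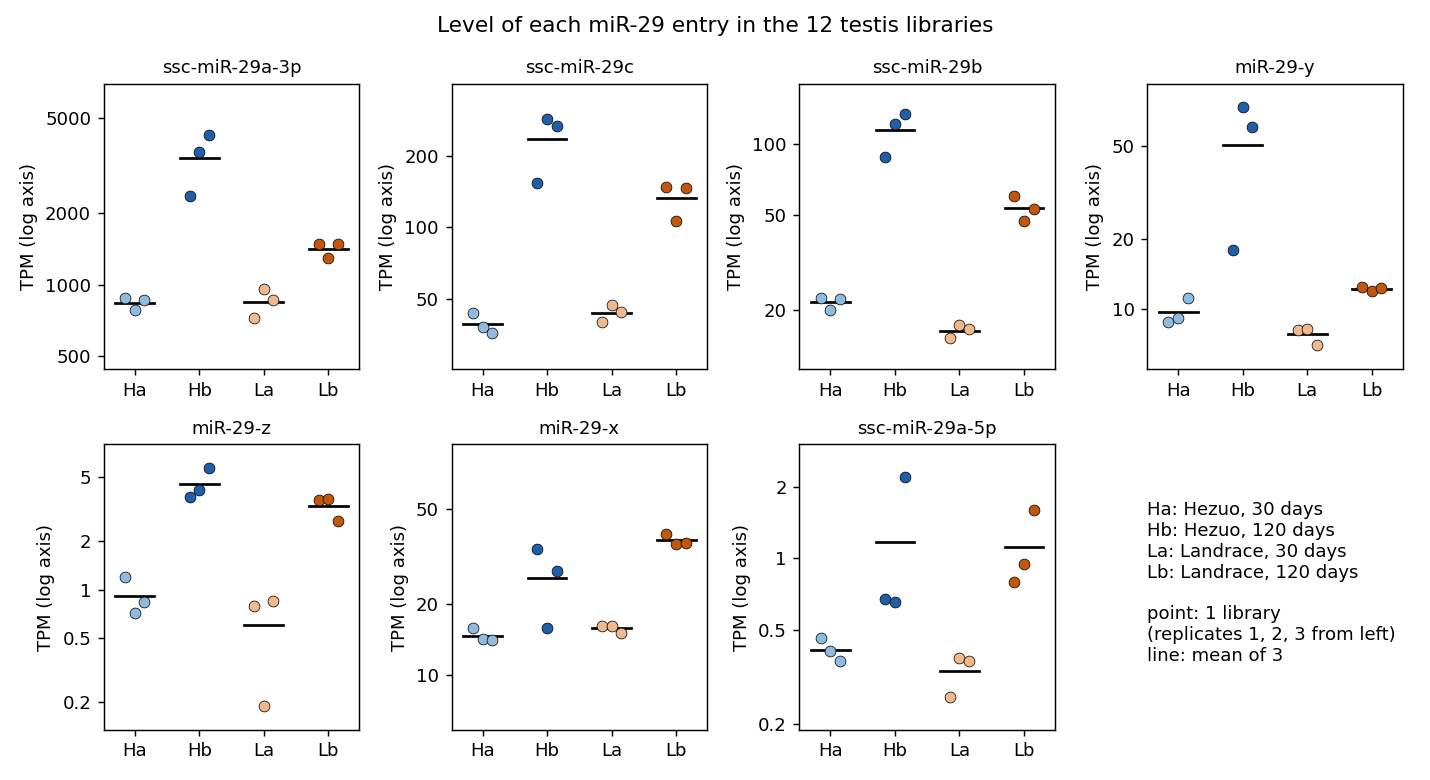
Level of each miR-29 entry in TPM (log axis, a separate range per panel) in the 12 libraries, where points are libraries and lines are means of 3. All panels show higher levels at 120 days, and miR-29-x is the only entry whose Hb mean (25.8 TPM) is below its Lb mean (37.1 TPM).

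The entries without a porcine prefix differed more in pattern. miR-29-y, close to ssc-miR-29c, was at 8.85, 9.13 and 11.11 TPM in Ha and at 17.9, 73.3 and 60.5 TPM in Hb. In La it was at 8.12, 8.25 and 7.01 TPM, and in Lb at 12.4, 12.0 and 12.4 TPM. Replicate 1 of Hb was far below the other two Hb libraries and nearest to Lb. miR-29-z, the run of ssc-miR-29c without its first 3 bases, was scarce, with 2 to 54 counts per library. It was at 1.20, 0.710 and 0.833 TPM in Ha, 3.77, 4.14 and 5.66 TPM in Hb, 0.785, 0.190 and 0.844 TPM in La and 3.57, 3.67 and 2.67 TPM in Lb. Its older libraries all lay above its younger ones.

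The 5p arms, in this family usually the less abundant strand of the hairpin, were miR-29-x and ssc-miR-29a-5p. miR-29-x was at 15.8, 14.2 and 14.1 TPM in Ha and at 34.1, 15.8 and 27.4 TPM in Hb. It was at 16.1, 16.2 and 15.1 TPM in La and at 39.4, 35.8 and 36.1 TPM in Lb. In TPM, replicate 2 of Hb was almost level with the highest Ha library, and all Lb libraries lay above all Hb libraries. ssc-miR-29a-5p had 94 counts in all, and its counting error is large. It was at 0.461, 0.406 and 0.370 TPM in Ha, 0.674, 0.654 and 2.19 TPM in Hb, 0.262, 0.379 and 0.369 TPM in La and 0.794, 0.944 and 1.60 TPM in Lb. Its Hb and Lb libraries overlapped.

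Each comparison was fitted over all listed miRNAs with edgeR's quasi-likelihood test, and a miRNA was called where the log2 fold change was above 1 in size and the unadjusted p was under 0.05. Benjamini-Hochberg adjusted p-values are given beside these calls. In Ha vs. Hb, which asks what changed with age in HZ boars, 6 of 7 members were called higher at 120 days, against 25.1% of all miRNAs tested, and 6 had an adjusted p under 0.05 in that direction, against 21.3%. The rise was 2.82 on the log2 scale for ssc-miR-29c (SE 0.38, adjusted p = 8.65e-05), 2.60 for ssc-miR-29b (SE 0.34, adjusted p = 7.73e-05) and 2.23 for ssc-miR-29a-3p (SE 0.32, adjusted p = 0.000159). miR-29-y rose by 2.67 (SE 0.53, adjusted p = 0.00168) and miR-29-z by 2.45 (SE 0.46, adjusted p = 0.00113). ssc-miR-29a-5p was called, but its log2 fold change of 1.60 (SE 0.68) had an adjusted p of 0.0826, and without replicate 3 of Hb it was 0.83 and no longer called. The call held in only 8 of 15 alternatives. miR-29-x rose by 0.88 (SE 0.30, adjusted p = 0.0387) and stayed under the fold threshold, which it passed at 1.002 without replicate 2 of Hb. Its adjusted p was above 0.05 without any 1 of the Ha libraries, without replicate 3 of Hb, with library size scaling (0.165) and with the replicate block (0.0698). The median log2 fold change was 2.45 over the members and 0.32 over all miRNAs tested. All 7 members had groups that did not overlap, as did 43.7% of all miRNAs.

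In La vs. Lb, the same question in LC boars, 5 of 7 members were called higher at 120 days, against 26.3% of all miRNAs, and 6 had an adjusted p under 0.05 in that direction, against 26.8%. ssc-miR-29b rose by 1.52 on the log2 scale (SE 0.16, adjusted p = 9.84e-06) and ssc-miR-29c by 1.42 (SE 0.15, adjusted p = 1.18e-05). miR-29-z rose by 2.17 (SE 0.43, adjusted p = 0.00158), ssc-miR-29a-5p by 1.49 (SE 0.50, adjusted p = 0.0317) and miR-29-x by 1.05 (SE 0.16, adjusted p = 0.000172). miR-29-x dropped to 0.98 without replicate 2 of Lb, and ssc-miR-29a-5p was 1.16 and not called without replicate 3 of Lb. The adjusted p of ssc-miR-29a-5p was under 0.05 in 8 of 15 alternatives and rose to 0.152, being above it with DESeq2, with 1 fit over all libraries, with the replicate block and without La 1, La 2, La 3 or Lb 3. ssc-miR-29a-3p, the most abundant member, rose by only 0.56 (SE 0.12, adjusted p = 0.00329) and was not called, and in 1 fit over all 12 libraries its adjusted p was 0.164. miR-29-y had a log2 fold change of 0.48 (SE 0.20, adjusted p = 0.0765), and its adjusted p was under 0.05 with library size scaling (0.0182) and with a filter on low counts (0.0348). The median was 1.42 over the members and 0.32 over all miRNAs. All 7 members had groups that did not overlap, as did 50.3% of all miRNAs.

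Between breeds at 30 days (Ha vs. La), no member was called and none had an adjusted p under 0.05, against 9.47% and 11.3% of all miRNAs. The edgeR test also gave 0 members at an unadjusted p under 0.05, and DESeq2 called 0. The log2 fold changes (LC minus HZ) ran from -0.43 for miR-29-z to 0.25 for ssc-miR-29c. That of miR-29-z, at 2 to 16 counts in these libraries, was -0.088 without replicate 2 of La and -0.79 without replicate 3 of La. The log2 fold changes of ssc-miR-29b and miR-29-y were -0.30 and -0.23. On the TPM scale both were lower in every La library than in every Ha library, a separation found for 27.5% of all miRNAs. On the scale of the fit miR-29-y overlapped, while ssc-miR-29b remained separate and miR-29-x was higher in every La library. The share of all miRNAs separated on that scale was not counted.

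Between breeds at 120 days (Hb vs. Lb), 4 of 7 members were called, all lower in LC boars, against 16.8% of all miRNAs called in either direction. The adjusted p was under 0.05 for 3 members, against 3.25% of all miRNAs. miR-29-y was lower by a log2 fold change of -2.58 (SE 0.55, adjusted p = 0.0297), ssc-miR-29a-3p by -1.69 (SE 0.36, adjusted p = 0.0297) and ssc-miR-29b by -1.51 (SE 0.35, adjusted p = 0.0392). These adjusted p-values went above 0.05 in some fits without 1 library: up to 0.140 for ssc-miR-29a-3p (Hb 3, Lb 1 or Lb 2 left out), 0.155 for ssc-miR-29b (the same, or Hb 2) and 0.150 for miR-29-y (Hb 2, Hb 3 or Lb 1). With library size scaling they were 0.0754 for ssc-miR-29a-3p, 0.163 for ssc-miR-29b and 0.0880 for miR-29-y, so that none of the 3 passed. miR-29-y was also above 0.05 with robust estimation (0.0572) and a filter on low counts (0.0501). ssc-miR-29c was called with a log2 fold change of -1.28 (SE 0.39) and an adjusted p of 0.0878. Scaled by library size alone, the same fold change was -0.81 and ssc-miR-29c was not called, and without replicate 2 of Hb it was -0.74. Its adjusted p was under 0.05 with DESeq2 (0.0368), with 1 fit over all libraries (0.0184), with the replicate block (0.0188) and without replicate 1 of Hb (0.00465). The log2 fold changes of miR-29-z (-0.82), ssc-miR-29a-5p (-0.37) and miR-29-x (0.27) did not pass. Without replicate 1 of Hb that of miR-29-z was -1.09 and called (adjusted p = 0.0895), and with library size scaling it was -0.44. On the TPM scale groups did not overlap for 6 members, ssc-miR-29a-5p being the exception, and for 26.5% of all miRNAs. On the scale of the fit (trimmed means) ssc-miR-29c and miR-29-z overlapped as well, and the share of all miRNAs without overlap was not counted on that scale. Hb vs. Lb shares its libraries with both age comparisons. The Hb libraries also stood apart from one another in other miRNAs, with germ cell lists at 4303, 2580 and 13180 TPM and blood lists at 3071, 1604 and 1232 TPM in replicates 1, 2 and 3. The part of these in the breed difference was not tested.

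**Figure D3:**
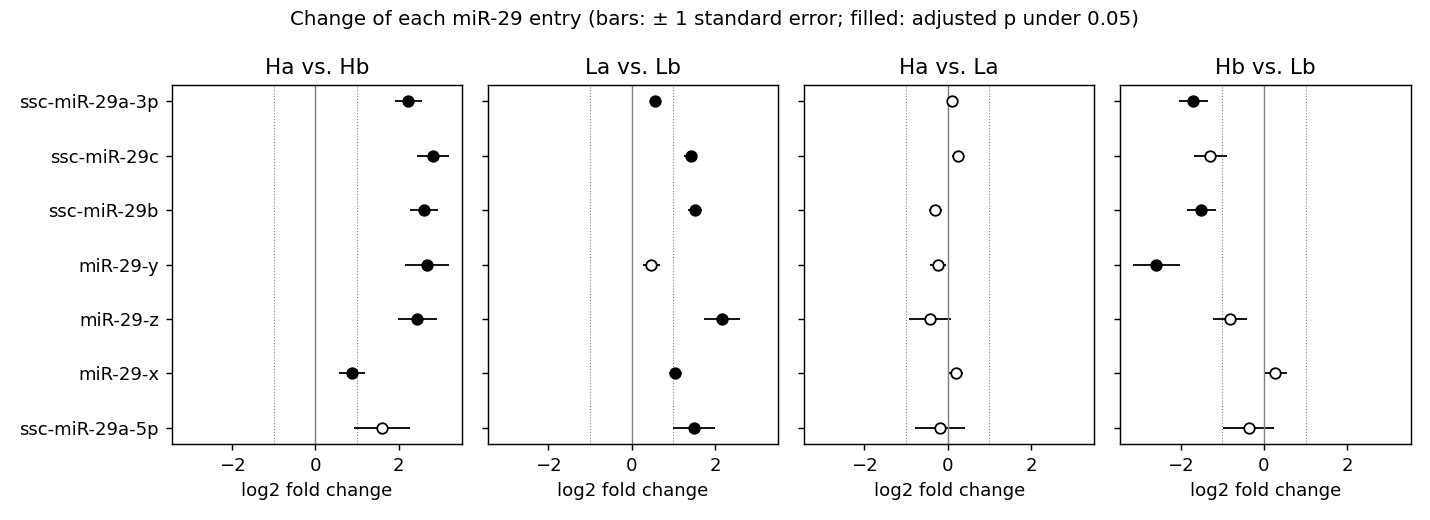
Log2 fold change of each miR-29 entry in the 4 comparisons (horizontal axis, points are edgeR estimates, bars are 1 SE to each side, filled points have an adjusted p under 0.05 and dotted lines mark the fold threshold). The 3p arms ssc-miR-29a-3p, ssc-miR-29b and ssc-miR-29c lie further right in Ha vs. Hb (2.23 to 2.82) than in La vs. Lb (0.56 to 1.52), and lie near 0 in Ha vs. La.

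The difference between the age changes of the breeds was tested by an interaction over all 12 libraries (change in LC boars minus change in HZ boars). It had an adjusted p under 0.05 in edgeR for 1 of 7 members, against 1.38% of all miRNAs. That member was ssc-miR-29a-3p, at -1.73 on the log2 scale (SE 0.37, adjusted p = 0.0377), so that its rise with age was smaller in LC boars. Leaving out 1 library raised its adjusted p to 0.0553 to 0.136 in 8 of 12 fits (Ha 1, Ha 2, Hb 3, La 1, La 2, La 3, Lb 1 or Lb 3). With libraries scaled by size alone no member passed, and DESeq2 gave 4. The estimates for miR-29-y (-2.25, adjusted p = 0.0686), ssc-miR-29c (-1.45, adjusted p = 0.0782) and ssc-miR-29b (-1.13, adjusted p = 0.0924) had the same sign and did not pass. With library size scaling they were -1.70, -0.96 and -0.67 in that order, and without replicate 2 of Hb that of ssc-miR-29c was also -0.96. The estimates for miR-29-z (-0.31, SE 0.64), ssc-miR-29a-5p (-0.16, SE 0.84) and miR-29-x (0.11, SE 0.29) were small beside their errors. They moved with the setting, from -0.67 to 0.11, from -0.54 to 0.61 and from 0.032 to 0.44. Their adjusted p-values were 0.909 or above in the main edgeR fit. Over the alternatives the lowest were 0.597, 0.758 and 0.623 in the same order.

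The members did not keep a fixed proportion to one another, which ratios of counts within a library show without any scaling. ssc-miR-29b was 2.56% to 2.58% of ssc-miR-29a-3p in Ha and 3.11% to 3.72% in Hb, against 1.81% to 2.10% in La and 3.61% to 4.06% in Lb. ssc-miR-29c was 4.17% to 4.97% of ssc-miR-29a-3p in Ha and 6.30% to 7.90% in Hb, against 4.93% to 5.54% in La and 8.21% to 9.997% in Lb. Both ratios were higher in every library of 120 days than in every library of 30 days. The log2 ratio rose by 0.68 for ssc-miR-29b and by 0.70 for ssc-miR-29c (exact two-sided permutation of age within breed, p = 0.005 for each, the smallest it can give, and adjusted p = 0.0117 over 7 ratios). The ratio of ssc-miR-29b to ssc-miR-29c differed by -0.02 between ages (exact permutation p = 0.8). That ratio was 51.6% to 61.8% in Ha and 36.8% to 37.9% in La, which did not overlap.

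The 5p arm lost share to its partner, although its own level rose. miR-29-x was 36.2%, 37.4% and 39.4% of ssc-miR-29c in Ha and 22.2%, 5.56% and 10.2% in Hb. It was 40.3%, 34.5% and 34.4% in La and 26.7%, 33.7% and 24.8% in Lb. All older libraries were lower than all younger ones, and all Hb libraries were lower than all Lb libraries. The log2 ratio fell by 1.08 with age over both breeds (exact permutation p = 0.005, adjusted p = 0.0117). It fell by 1.80 in HZ boars and fell by 0.37 in LC boars, and the difference between these falls was not tested. Without any 1 of the Ha libraries the adjusted p was 0.0612 to 0.0875. The ratio of ssc-miR-29a-5p to ssc-miR-29a-3p differed by 0.02 over both breeds (exact permutation p = 0.955), which is the mean of -0.78 in HZ boars and 0.83 in LC boars, with 3 to 18 counts of ssc-miR-29a-5p per library.

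Of the entries close to ssc-miR-29c, miR-29-y was 20.4% to 31.1% of it in Ha and 11.7% to 25.7% in Hb, against 16.0% to 20.3% in La and 8.46% to 11.3% in Lb. The log2 ratio fell by 0.66 with age (exact permutation p = 0.025, adjusted p = 0.0438), and leaving out 1 library brought the adjusted p to 0.0583 to 0.0875 in 9 of 12 fits (all but Hb 2, Hb 3 and Lb 2). In HZ boars the ages overlapped, and in LC boars they did not. miR-29-z was 0.504% to 3.51% of ssc-miR-29c, with a difference of 0.35 between ages (exact permutation p = 0.535), from -0.28 in HZ boars and 0.99 in LC boars. These opposite signs within breeds were not tested, and the pooled difference was 0.020 without replicate 2 of La and 0.53 without replicate 1 of La. Between breeds, 14 tests of ratios were made, 7 at each age, and an exact test of 3 against 3 libraries cannot go under p = 0.1. At 120 days that smallest p was reached by miR-29-x to ssc-miR-29c (1.38, LC minus HZ on the log2 scale), miR-29-y to ssc-miR-29c (-1.02), ssc-miR-29a-5p to ssc-miR-29a-3p (1.30) and ssc-miR-29c to ssc-miR-29a-3p (0.44), each with an adjusted p of 0.175. At 30 days it was reached by ssc-miR-29b to ssc-miR-29a-3p (-0.40), ssc-miR-29b to ssc-miR-29c (-0.56), miR-29-y to ssc-miR-29c (-0.47) and ssc-miR-29a-5p to ssc-miR-29a-3p (-0.31), with the same adjusted p.

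**Figure D4:**
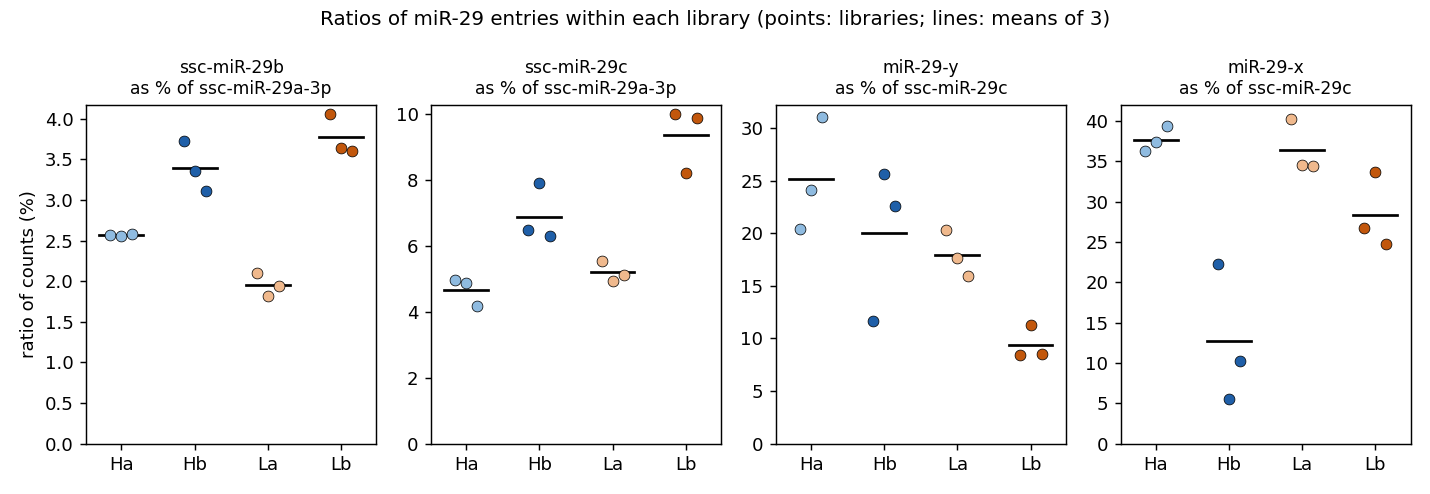
Ratio of counts between members within each library for 4 of the 7 ratios (percent, linear axes from 0), by group, where points are libraries and lines are means of 3. ssc-miR-29b and ssc-miR-29c gain on ssc-miR-29a-3p at 120 days in both breeds, and miR-29-x falls against ssc-miR-29c, to 5.56% in replicate 2 of Hb.

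Across the 12 libraries, which share the split by age and differ in depth, Pearson's r of log2(TPM + 1) was 0.974 between ssc-miR-29b and ssc-miR-29c, 0.965 between ssc-miR-29a-3p and ssc-miR-29b and 0.949 between ssc-miR-29a-3p and ssc-miR-29c. It was 0.648 between ssc-miR-29c and miR-29-x. Among the 432 other miRNAs whose mean was 10 TPM or more, those with the highest r to ssc-miR-29a-3p were miR-191-x (0.963), miR-145-x (0.951) and miR-11980-z (0.933). For ssc-miR-29b they were miR-11980-z (0.978), an entry predicted by the study (0.968) and miR-191-x (0.966). For ssc-miR-29c they were miR-145-x (0.971), miR-4286-z (0.965) and the same predicted entry (0.965). These correlations describe 12 libraries of 4 groups and follow the group means. miR-145-x, named for a smooth muscle miRNA, had means of 6.997 TPM in Ha, 47.1 TPM in Hb, 5.76 TPM in La and 21.0 TPM in Lb.

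Other miRNAs known to target the DNA methylation or matrix genes were counted in the same way. Of 10 names in a list for DNA methyltransferases, 8 were in the table. In Ha vs. Hb 2 of the 8 were called higher and none lower, a share close to the 25.1% of all miRNAs called higher, and the median log2 fold change was 0.15 against 0.32 over all miRNAs. ssc-miR-143-3p, a miRNA of smooth muscle and mesenchyme, rose by 1.74 (SE 0.33, adjusted p = 0.00134), and ssc-miR-101, which also targets the histone methyltransferase EZH2, rose by 1.05 (SE 0.28, adjusted p = 0.0107). In La vs. Lb only ssc-miR-143-3p of the 8 was called, at 1.05 (SE 0.13, adjusted p = 3.1e-05), beside 26.3% of all miRNAs, and the median was 0.16 against 0.32. ssc-miR-148a-3p, the other of the 2 most abundant entries of the list, had log2 fold changes of -0.14 (adjusted p = 0.702) in HZ boars and -0.56 (adjusted p = 0.0026) in LC boars. In Hb vs. Lb, where 16.8% of all miRNAs were called, ssc-miR-101 was called lower in LC boars (-1.01, adjusted p = 0.0944), and it was the 1 entry of the list whose age by breed interaction passed (-1.32, adjusted p = 0.0476), against 1.38% of all miRNAs. That value was not run under the alternatives. None of the 8 was called in Ha vs. La, where 9.47% of all miRNAs were. There 2 of the 8 had an adjusted p under 0.05, against 11.3% of all miRNAs. These were ssc-miR-101 (0.38, adjusted p = 0.0184) and ssc-miR-148a-3p (0.32, adjusted p = 0.0312), both higher in LC boars. ssc-miR-101 is named after its values were seen.

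Of 18 names in a list for extracellular matrix genes, 14 were in the table. In Ha vs. Hb 2 were called higher and 1 lower, with a median of -0.43, and in La vs. Lb 2 were called higher and 1 lower, with a median of -0.17. Over all miRNAs 25.1% and 26.3% were called higher, 14.4% and 5.81% were called lower, and both medians were 0.32. In Ha vs. Hb 2 of the 14 had an adjusted p under 0.05 upward and 3 downward, and in La vs. Lb 4 and 4. Over all miRNAs 21.3% and 26.8% had it upward, and the downward share was not counted. The called entries, named after their values were seen, were ssc-miR-133b (2.49, adjusted p = 0.00113), ssc-miR-192 (2.02, adjusted p = 0.00308) and ssc-miR-200b (-1.35, adjusted p = 0.0829) in HZ boars. In LC boars they were ssc-miR-133a-3p (2.30, adjusted p = 3.55e-06), ssc-miR-133b (2.26, adjusted p = 0.000316) and ssc-miR-199a-5p (-1.02, adjusted p = 1.52e-05). ssc-miR-133a-3p and ssc-miR-133b are miRNAs of striated muscle. The most abundant entries of the list were ssc-miR-199a-5p and ssc-miR-26a, whose log2 fold changes in Ha vs. Hb were -0.97 (adjusted p = 0.00296) and 0.33 (adjusted p = 0.401). In La vs. Lb they were -1.02 and -0.93 (adjusted p = 1.52e-05 and 1.71e-05). In Hb vs. Lb 3 of the 14 were called, against 16.8% of all miRNAs. ssc-miR-133a-3p was called higher in LC boars (1.39, adjusted p = 0.0365), and ssc-miR-192 (-1.51, adjusted p = 0.0907) and ssc-miR-26a (-1.22, adjusted p = 0.0881) were called lower without passing the adjusted threshold. None of the 14 was called in Ha vs. La, against 9.47% of all miRNAs, and 2 had an adjusted p under 0.05, against 11.3%.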

How the data were processed

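Small RNA (18 to 30 nt) of 12 testis libraries was sequenced. The authors filtered reads with fastp, removed tags matching other RNAs, exons, introns or repeats, compared the remaining tags with miRBase (bowtie) and counted them with miRDeep2. The deposited counts are whole numbers per miRNA, and the authors' TPM divides each count by all clean tags of its library, writing 0.01 for a count of 0. Depth therefore sets the precision of scarce entries, and a fold change also moves with whatever else a library holds.

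Counts were tested with edgeR 4.0.16 (R 4.3.3), the tool and call thresholds of the study, with trimmed mean (TMM) scaling and the quasi-likelihood test chosen here, in a separate fit for each of the 4 comparisons over miRNAs with at least 1 count in the libraries compared. The interaction used all 12 libraries. P-values were adjusted over every miRNA tested, and SE is the log2 fold change divided by the root of the F statistic. In tests on simulated data, 200 of 200 changed miRNAs were recovered in Ha vs. Hb and 193 of 200 in the interaction. Of the unchanged miRNAs, 22 of 1227 and 4 of 1252 were called in the same order. Whether these shares hold for entries as scarce as ssc-miR-29a-5p, or for libraries as unlike as those of Hb, was not tested. Ratios of members used counts with 0.5 added and exact permutations of age within breed. Likeness used log2(TPM + 1).

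Members were found by name. For likeness, the 3 miRNAs with the highest r to each of ssc-miR-29a-3p, ssc-miR-29b and ssc-miR-29c were named, and for each list the 2 most abundant entries, with others named as such. The members and lists were chosen with earlier results of these data known. Alternatives were scaling by library size or relative log expression, DESeq2 1.42.0, robust dispersion, a filter on low counts, merging identical sequences, adding miR-29-y and miR-29-z to ssc-miR-29c, adding 1 before a ratio, Spearman's rho, within-age deviations or a lower TPM minimum for likeness, 1 fit over all libraries, a replicate block, leaving out each library and, chosen after seeing the data, fold changes of mean TPM. Same-numbered libraries were not paired, since their deviations correlated between -0.12 and 0.13. The table of predicted hairpins was not used.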

Additional observations from a re-analysis of the deposited data

Results flagged for a closer look

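The rise of ssc-miR-29a-3p with age differed between the breeds by the test of the difference itself: the interaction (LC minus HZ) was -1.73 on the log2 scale in edgeR, with 3 libraries per group and all Hb libraries above all Lb libraries. Over 20 alternative fits it ran from -2.04 to -1.26, with adjusted p-values from 0.000206 to 0.136, under 0.05 in 11 of them.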

How the results depend on the processing

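Counts of called members stayed within 1.5 times in the 4 comparisons, with ranges on leaving out 1 library of 5 to 7 (Ha vs. Hb) and 4 to 5 (La vs. Lb) between ages and of 0 at 30 days and 3 to 5 at 120 days between breeds. The interaction was less stable: 1 member passed, against 0 with library size scaling, 4 with DESeq2 and 0 to 4 on leaving out 1 library (4 without Hb replicate 1, and 0 without Ha 1, Ha 2, Hb 3, La 1, La 2, La 3, Lb 1 or Lb 3). Library size scaling moved the median of all miRNAs by -0.08 (HZ boars) and 0.22 (LC boars) between ages, by -0.10 (30 days) and 0.27 (120 days) between breeds, and by 0.33 in the interaction. The 2 scalings differ by the TMM factors. Over all 12 libraries these were 1.195, 0.694 and 0.966 in replicates 1, 2 and 3 of Hb. They were 0.98 to 1.04 in Ha, 0.91 to 0.98 in La and 1.11 to 1.16 in Lb. What sets these factors was not tested.

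Signs changed as follows. For ssc-miR-29a-5p, the interaction was 0.22 with library size scaling, 0.61 without Hb 3, 0.06 without Lb 1 and as low as -0.54 without Hb 1, and Hb vs. Lb was 0.39 without Hb 3 and -0.76 without Hb 1. For miR-29-z, the interaction was 0.11 with library size scaling, 0.046 without La 3 and -0.67 without La 2. For ssc-miR-29a-3p, Ha vs. La was -0.011 without La 2 (highest 0.22). The age difference of ssc-miR-29b to ssc-miR-29c was 0.053 with miR-29-y and miR-29-z added to ssc-miR-29c, and -0.079 to 0.030 on leaving out 1 library. That of ssc-miR-29a-5p to ssc-miR-29a-3p was -0.047 with 1 count added, and -0.16 to 0.20 on leaving out 1 library.

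With a replicate block, 5, 5, 0 and 4 members were called in the 4 comparisons and 1 passed the interaction. In this balanced design the block cannot move a ratio's age difference, which was 0.68 (ssc-miR-29b to ssc-miR-29a-3p), 0.70 (ssc-miR-29c to ssc-miR-29a-3p), -1.08 (miR-29-x to ssc-miR-29c) and -0.66 (miR-29-y to ssc-miR-29c). All 4 lost the adjusted threshold: the adjusted p was 0.0729 for the first 3, where exact permutation cannot go lower, and 0.109 for the last. On leaving out 1 library, miR-29-y to ssc-miR-29c ran from -0.77 to -0.49 and miR-29-x to ssc-miR-29c from -1.34 to -0.84. Calls were lost for ssc-miR-29a-5p in Ha vs. Hb (library size scaling, DESeq2, the block, without Hb 3 or any 1 Ha library, 0.83 to 1.68) and in La vs. Lb (DESeq2, without Lb 3), for miR-29-x in La vs. Lb (1 fit over all libraries, without Lb 2) and for ssc-miR-29c in Hb vs. Lb (library size scaling, mean TPM, without Hb 2). As TMM-scaled CPM, the summed level was 1036 ± 35.6 (Ha) and 4953 ± 2147 (Hb) in HZ boars and 1113 ± 179.8 (La) and 1674 ± 113 (Lb) in LC boars (SD, n = 3). Of the 3 most similar miRNAs, Spearman's rho shared 0, 0 and 1 and deviations within ages 0, 1 and 0 for ssc-miR-29a-3p, ssc-miR-29b and ssc-miR-29c. Scarce members are limited by depth: ssc-miR-29a-5p had 3 to 18 counts per library.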
